A study of Homo sapiens with 29 samples.

Results

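IMR90 ER:RAS cells with SMARCA4 knocked down were compared with cells given a non-targeting siRNA, all of them senescent. IMR90 is an established line of human lung fibroblasts. The cells carry a retroviral construct (pLNC ER:RAS-neo) in which RAS is fused to the estrogen receptor, so that 4-hydroxytamoxifen (4OHT) activates the oncogene and the cells enter oncogene-induced senescence. Members were the libraries of the groups 4OHT_siSMARCA4 and 4OHT_siNT, 6 of each and 12 of the 18 libraries in the deposited count table. All 12 came from cells that held the ER:RAS construct, had an siRNA introduced by reverse transfection the day before 4OHT was added, and were collected at day 7. The 2 groups differed in the siRNA: numbers 2 and 4 against SMARCA4, or non-targeting siRNAs (siNT) with the numbers 2 and 4. The labels do not say whether libraries of a group came from separate cultures, so p-values measure only the spread between these samples, which may be technical.

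SMARCA4 (BRG1) is an ATPase that drives SWI/SNF complexes, which slide and evict nucleosomes and so change the access of transcription factors to promoters and enhancers. Oncogene-induced senescence is a lasting arrest of the cell cycle in which chromatin is reorganised and the cells turn on a secretory programme. Fibroblasts in general are the main makers of collagens, elastic fibres and proteoglycans, they carry contractile filaments, and senescent ones also enlarge their lysosomes and change their handling of iron and oxidants. The question here was which of these functions and which gene families differed with SMARCA4 levels, apart from the cytokine, cell cycle inhibitor and interferon programmes.

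Summed counts ranged from 13237672 to 15407710 in the 4OHT_siNT libraries and from 11382143 to 18039313 in the 4OHT_siSMARCA4 libraries. Of 28266 gene symbols, 12673 held enough counts to be tested. Levels are counts-per-million (CPM) after TMM scaling, and a gene was called when its adjusted p in the edgeR quasi-likelihood test was under 0.05. Each library label also carries a set name that ends in V or VM, and what these letters stand for is not stated. All 6 siNT libraries were VM, whereas the knockdown group held 3 V libraries, 2 VM libraries and 1 library without a set label, so the letters and the siRNA are partly confounded. The count columns of that last library bear the set name 1VM, which no sample title with its siRNA has, so it was not counted as VM. Among the VM libraries alone, 12.8% of genes were called higher and 15.6% lower in the knockdown, against 5.38% and 5.93% when the V libraries stood for the knockdown. The controls also differed among themselves: siNT 2 against siNT 4 called 23.2% of genes, 12.4% being higher with siNT 2. Of 30 markers of other cell types (leukocytes, endothelium, epithelium, erythrocytes, hepatocytes), 24 were too low to be tested. PTPRC (CD45, leukocytes) reached at most 4 counts in a library, EPCAM (epithelium) at most 7 and CDH5 (endothelial cadherin) at most 5. Of the 6 that were tested, none was higher and KRT18 alone was lower (log2 fold change -0.51 ± 0.12). In bulk RNA, fewer cells expressing a gene and less RNA per cell cannot be told apart.

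**Figure D1:**
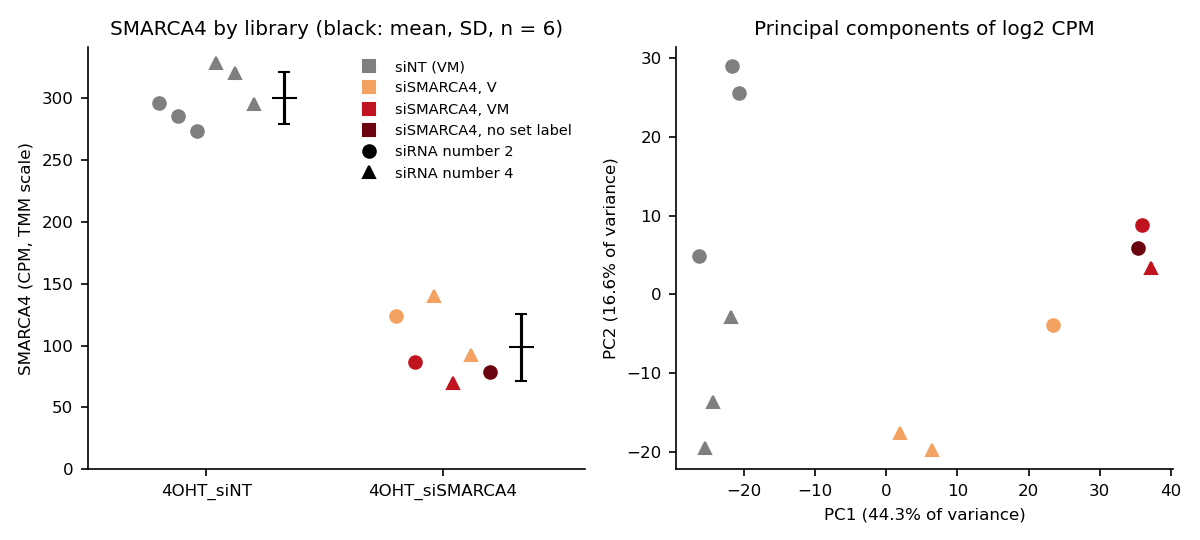
SMARCA4 level in each library (left; CPM on a linear axis, with the mean and SD of 6 libraries in black) and the first 2 principal components of log2 CPM over all genes tested (right). SMARCA4 lay at 273.5 to 329 CPM with siNT and at 69.9 to 139.8 CPM with siSMARCA4, and the first component (44.3% of the variance) set the groups apart, with the V libraries of siRNA 4 nearest to the controls.

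SMARCA4 itself was at 274, 296 and 329 CPM (lowest, median, highest of 6 libraries) with siNT and at 69.9, 89.4 and 139.8 CPM with siSMARCA4, with no overlap. The log2 fold change was -1.61 ± 0.14 (SE; adjusted p = 3.43e-06). It was -1.95 with the VM libraries only and -1.33 with the V libraries only. Across all genes, 1685 were called higher (13.3%) and 1720 lower (13.6%), together 26.9% of those tested. Whether called or not, 669 genes (5.28% of those tested) had all 6 knockdown values above all 6 controls, and 804 (6.34%) had all 6 below. Changes over 2-fold were fewer, 135 higher and 325 lower. When single siRNAs were used, siSMARCA4_2 alone called 16.7% of genes higher and 17.9% lower and siSMARCA4_4 alone 5.34% and 6.04%. The siSMARCA4_2 libraries were 2-3V, 2-3VM and the one without a set label, and those of siSMARCA4_4 were 4-2V, 4-2VM and 4-3V. The siRNA and the set letters are thus mixed in these shares. SMARCA4 itself was at -1.64 with siSMARCA4_2 and -1.57 with siSMARCA4_4, and the 2 siRNAs set directly against each other called 4 of 12563 genes. Against siNT 2 alone the shares were 6.99% higher and 8.71% lower, and against siNT 4 alone 12% and 12.1%. No gene called in the 12 libraries was called in the opposite direction in any of these subsets. Every subset shares libraries with the 12, so an opposite call was unlikely from the start and the subsets are not independent checks.

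The differences also followed the length of the transcript. Among the shortest quintile of transcripts (up to 1.785 kb), 16.95% of genes were called higher and 5.972% lower, whereas among the longest quintile (from 5.83 kb) 9.94% were higher and 20.88% lower. This tilt was carried by the knockdown libraries 2-3V, 2-3VM and 4-2VM, in which the shortest quintile lay 0.207, 0.177 and 0.188 log2 units above the siNT mean and the longest quintile -0.204, -0.14 and -0.17 from it. The siNT library 2-1VM tilted the other way, by -0.0892 in the shortest and 0.107 in the longest quintile. In the other 8 libraries no quintile departed by more than 0.0803. A fit of those 8 libraries, 5 controls and 3 knockdown libraries, chosen after seeing the data, called 3.77% of genes higher and 4.13% lower. The 3 knockdown libraries were 4-2V, which held the most SMARCA4 of the knockdown group (139.8 CPM), 4-3V and the one without a set label. The mix of siRNAs and set letters thus changed too, and length, siRNA and set letters cannot be told apart in the calls lost. SMARCA4 was at -1.54 in this fit. The fit had 4 fewer libraries, and its median log2 fold change was -0.02 in the shortest quintile and 0.03 in the longest. It is given below as the 8-library fit. What part the length trend has in each group of genes was not tested.

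**Figure D2:**
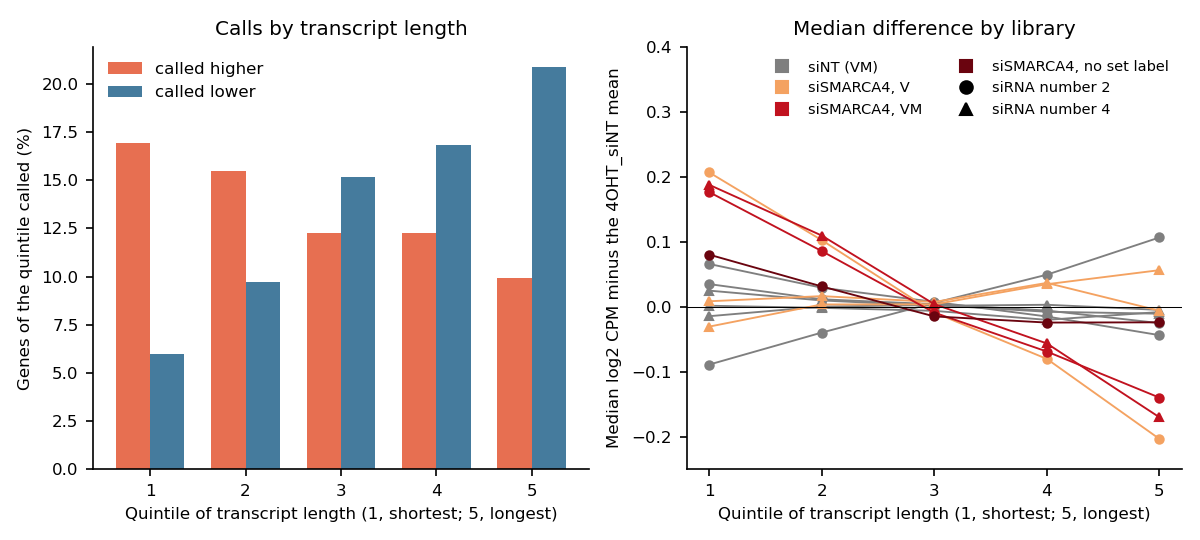
Share of genes called higher or lower in each quintile of transcript length (left, percent of the quintile) and, for each library, the median log2 CPM of the genes in a quintile minus the mean of the siNT libraries (right). The share called lower climbs from 5.972% in the shortest to 20.88% in the longest quintile, and 3 knockdown libraries carry most of the slope.

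The largest differences among genes whose groups did not overlap and that were also called among the VM libraries are described next. Besides MMP12, PLSCR4, GPRC5A and CXCL10, the 14 largest rises held genes for matrix cleavage, lipid mediators, endothelial products and brakes on inflammatory signalling. MMP10 (stromelysin 2, a matrix metalloproteinase) was at 11, 18.7 and 28.1 CPM with siNT and at 63.6, 109.8 and 122 CPM in the knockdown, a log2 fold change of 2.36 ± 0.22 (adjusted p = 4.52e-06). ESM1, a secreted proteoglycan known from endothelium, moved from 6.76, 10.6 and 16.8 CPM to 31.1, 60.4 and 76.9 CPM (2.30 ± 0.24). NTN1, the guidance cue netrin-1, moved from 2.75, 3.29 and 4.69 CPM to 6.89, 17.7 and 21.2 CPM (2.20 ± 0.24). In each of these genes every knockdown library was above every control. BIRC3, a ubiquitin ligase that restrains cell death, had the smallest standard error of the 14, with 15.4 to 23.8 CPM against 61.9 to 76.4 CPM, 1.86 ± 0.11. TNIP3 (1.90), an inhibitor of NF-kB signalling, PTGES (2.27), which makes prostaglandin E2, and SLCO2B1 (2.02), an organic anion importer, rose too. So did C15orf48 (1.94), a small mitochondrial protein related to a respiratory chain subunit, B4GALNT1 (1.82), an enzyme that makes complex gangliosides, and PLPPR3 (2.30), a membrane protein of growing axons. Some of these genes differed between the controls. The log2 fold change of siNT 2 over siNT 4 was -1.34 for C15orf48, -1.11 for PTGES and 0.93 for ESM1, against -0.12 for BIRC3. Each was called against either siNT alone.

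The 14 largest falls held adhesion and matrix genes beside genes best known from nerve, skin and pigment cells. ITGA7, the integrin subunit that binds laminin in muscle, fell from 8.99, 10.5 and 12.9 CPM with siNT to 0.515, 0.985 and 2.51 CPM in the knockdown (-2.95 ± 0.26, adjusted p = 3.43e-06). MFAP4, a protein bound to elastic microfibrils, fell from 23.9, 32.9 and 37 CPM to 2.85, 4.55 and 8.78 CPM (-2.60 ± 0.23). The highest knockdown library was below the lowest control for both. PMEL, the fibril protein of pigment granules, fell by 2.66 and separated cleanly: the controls held 5.8 to 8.43 CPM and the knockdown libraries 0.723 to 1.56 CPM. ANK3 (-2.61), which anchors channels to the membrane skeleton, MYO1D (-2.23), an unconventional myosin, and LZTS1 (-2.42), a leucine zipper protein named as a tumour suppressor, fell as well. PARM1 (-2.46), a mucin-like membrane protein, and CPA4 (-2.19), a carboxypeptidase, were also among these falls, as were VGF, IVL, MEST, NEFL and COL11A1. The size of some falls depended on the control. IVL was at 16.1 to 16.9 CPM with siNT 2 and 1.79 to 3.33 CPM with siNT 4, and fell by 4.12 and 1.50 against them. PARM1, MEST and CPA4 were higher with siNT 2 than siNT 4 by 1.32, 1.17 and 1.05, whereas COL11A1 hardly differed (0.03). All 5 were called against either siNT alone.

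**Figure D3:**
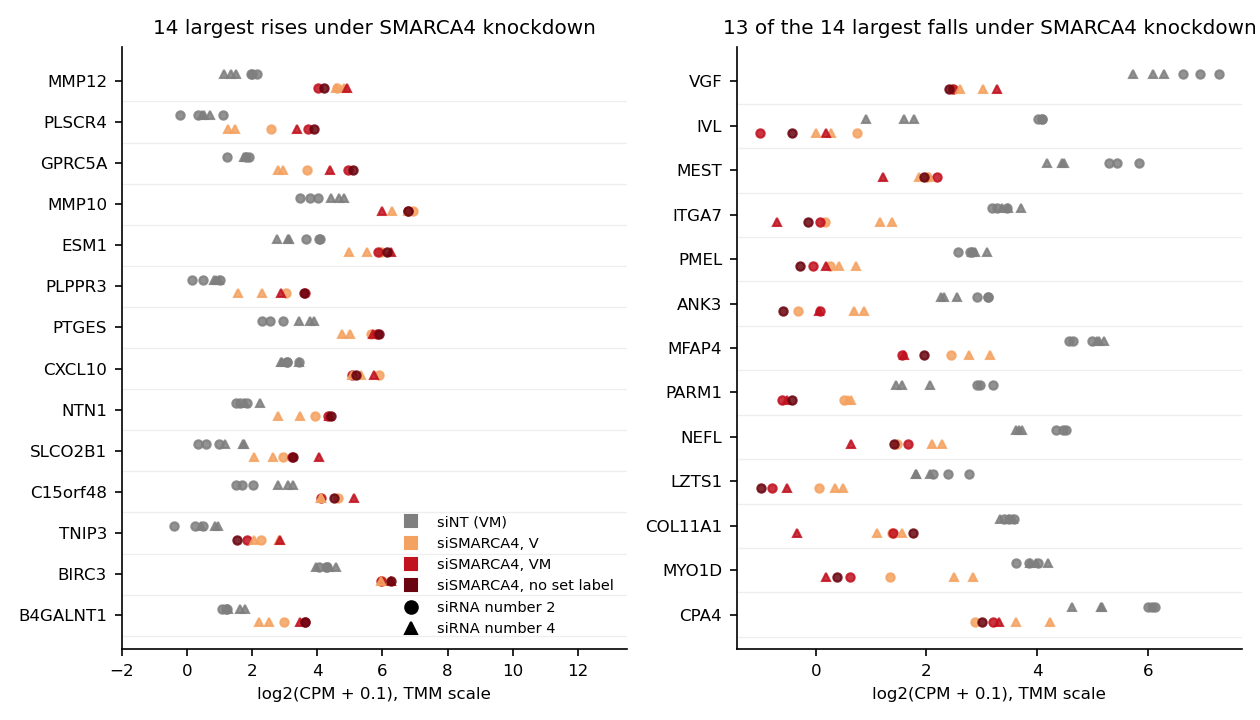
Level of the 14 genes with the largest rises (left) and 13 of the 14 with the largest falls (right), one point per library on a log2(CPM + 0.1) axis, siNT above and siSMARCA4 below within each gene. The groups do not overlap in any of the genes shown, for example 15.4 to 23.8 CPM against 61.9 to 76.4 CPM for BIRC3.

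Fibroblast matrix genes were lower as groups. Of 28 collagen genes tested, 18 fell and none rose (64.3% lower against 13.6% of all genes), and their median log2 fold change was -0.55 against 0.01 over all genes. In 9 of the 28 the groups did not overlap, with the knockdown lower, as in 6.34% of all genes tested. Collagen I, the main fibrillar collagen of connective tissue, fell in both chains. COL1A1 was at 5663, 6898 and 8442 CPM with siNT and at 1402, 2623 and 3703 CPM with siSMARCA4 (-1.42 ± 0.18, adjusted p = 6.74e-05), and COL1A2 at 1900.4, 2304 and 2712 CPM and 439.6, 887 and 993 CPM (-1.46 ± 0.17). For both chains all 6 knockdown libraries were below all 6 controls. The largest falls were in collagens of cartilage and of basement membranes: COL11A1 (-2.24 ± 0.21), COL10A1 (-1.73 ± 0.28) and COL4A6 (-1.60 ± 0.15). COL3A1 (-1.01) and COL5A1 (-1.10), partners of collagen I in fibrils, were chosen after their values were seen. The group mean lay 0.52 to 1.22 log2 units below the siNT mean in the knockdown libraries, while the siNT libraries held within -0.08 to 0.10 of it. Of the 18 calls, 17 held with the VM libraries only, 10 with the V libraries and 10 in the 8-library fit, where the median was -0.45. Less the median of the transcripts of like length, the median was -0.48.

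Elastic fibre genes (elastin, fibrillins, fibulins and the enzymes that cross-link them) were lower in 14 of 19, with none higher and a median of -0.67. The share lower was 73.7%, against 13.6% of all genes tested. FBN2, fibrillin-2, was at 90.1, 92.9 and 125 CPM with siNT and 19.6, 35 and 51.4 CPM in the knockdown (-1.47 ± 0.17). The cross-linking enzymes LOXL3 (-1.43 ± 0.24) and LOXL4 (-1.37 ± 0.22) fell by similar amounts, and fibrillin-1, FBN1, by less (-0.62). Of the 14 calls, 13 held with the VM libraries, 11 with the V libraries and 8 in the 8-library fit (median -0.56). With siNT 2 set against siNT 4, 8 elastic fibre genes were lower and none higher, and 10 of the 14 calls held against siNT 2 alone. Of 23 proteoglycan and hyaluronan synthase genes, 10 fell and 1 rose (43.5% lower, median -0.41). Biglycan, BGN, which binds collagen and growth factors, fell from 171, 175 and 228 CPM to 26.3, 46.1 and 109.6 CPM (-1.64 ± 0.31, adjusted p = 0.00135), with no overlap. BGN was not called in the 8-library fit and differed between V and VM knockdown libraries. Fibromodulin, FMOD, a regulator of collagen fibrils, fell by 1.54 ± 0.22. The exception was TGFBR3 (betaglycan, a co-receptor for TGF-beta), which rose by 0.86 ± 0.15. In the 8-library fit 3 of the 10 falls held.

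Genes for attachment to the matrix and to other cells followed. Laminins, the core of basement membranes, were lower in 5 of 9, with none higher (55.6% called, against 26.9% of all genes tested). Their median was -0.52, and LAMA4 fell from 110.2, 121 and 138 CPM to 22.1, 28.8 and 59.4 CPM (-1.72 ± 0.21). Integrins gave 5 lower and 1 higher of 17 (35.3% called, median -0.16). After ITGA7, the largest falls were in the collagen receptor ITGA11, at 141 to 178 CPM with siNT and 36.3 to 74 CPM in the knockdown (-1.56 ± 0.16), in the laminin receptor ITGA6 (-1.28 ± 0.18) and in ITGA1 (-1.03 ± 0.22), a second collagen receptor. The integrin group mean was -0.92 to -0.15 in the knockdown libraries. Cadherins gave 6 lower and none higher of 13 (46.2% called). CDH11, the cadherin of mesenchymal cells, fell from 62.2, 84.4 and 112 CPM to 16.9, 34 and 36.1 CPM (-1.43 ± 0.18), CDH13 (T-cadherin) (-1.05) and CDH2 (N-cadherin) (-0.81). Clustered protocadherins, whose genes share exons so that reads between them are uncertain, gave 3 higher and 8 lower of 25 (44% called). In the 8-library fit, 1 of the 8 protocadherin falls and 3 of the 5 integrin falls held.

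The list of lung fibroblast identity genes gave 12 lower and 2 higher of 26 (53.8% called, against 26.9% of all genes tested). Their median was -0.31, and 5 of the 26 were collagens that were counted above. PDGFRB, the receptor for platelet-derived growth factor on mesenchymal cells, fell from 117, 129 and 157 CPM to 33.7, 52.6 and 76.5 CPM (-1.24 ± 0.17), and THY1, a surface glycoprotein of fibroblasts, from 327, 406 and 493 CPM to 119.8, 182 and 259 CPM (-1.12 ± 0.18). All knockdown libraries were below all controls for both. FN1, fibronectin, was lower (-1.04 ± 0.28, adjusted p = 0.0115) but its groups overlapped at 4853 to 11651 CPM and 2049.5 to 7103 CPM. FN1 was not called with the V libraries, with siSMARCA4_4, against siNT 2 or in the 8-library fit. Contractile genes gave 9 lower and 2 higher of 25 (44% called, median -0.15). ACTG2, smooth muscle gamma-actin, fell from 67.9, 87.8 and 103 CPM to 16.1, 24.1 and 41.8 CPM (-1.73 ± 0.18), MYLK, the kinase that activates myosin, (-0.79), and ACTA2, the actin of myofibroblasts, (-0.43). Of 27 ADAM and ADAMTS proteases, which cut membrane proteins and proteoglycans, 11 fell and 5 rose (59.3% called). ADAMTS19 fell by 2.32 ± 0.41, ADAM11 rose by 2.29 ± 0.39 from 0.155 to 0.619 CPM to 0.947 to 3.49 CPM, and ADAMTS8 (-1.54) and ADAMTS3 (-1.14), which trims procollagen, fell. All 5 rises of this list and 4 of its 11 falls held in the 8-library fit. Serpins gave 4 higher and 5 lower of 16 (56.25% called). SERPINF1, an inhibitor of vessel growth, fell from 30.8, 36.3 and 38.7 CPM to 5.33, 10.8 and 13.4 CPM (-1.78 ± 0.17), and SERPINA1 (alpha-1-antitrypsin) (-1.64).

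**Figure D4:**
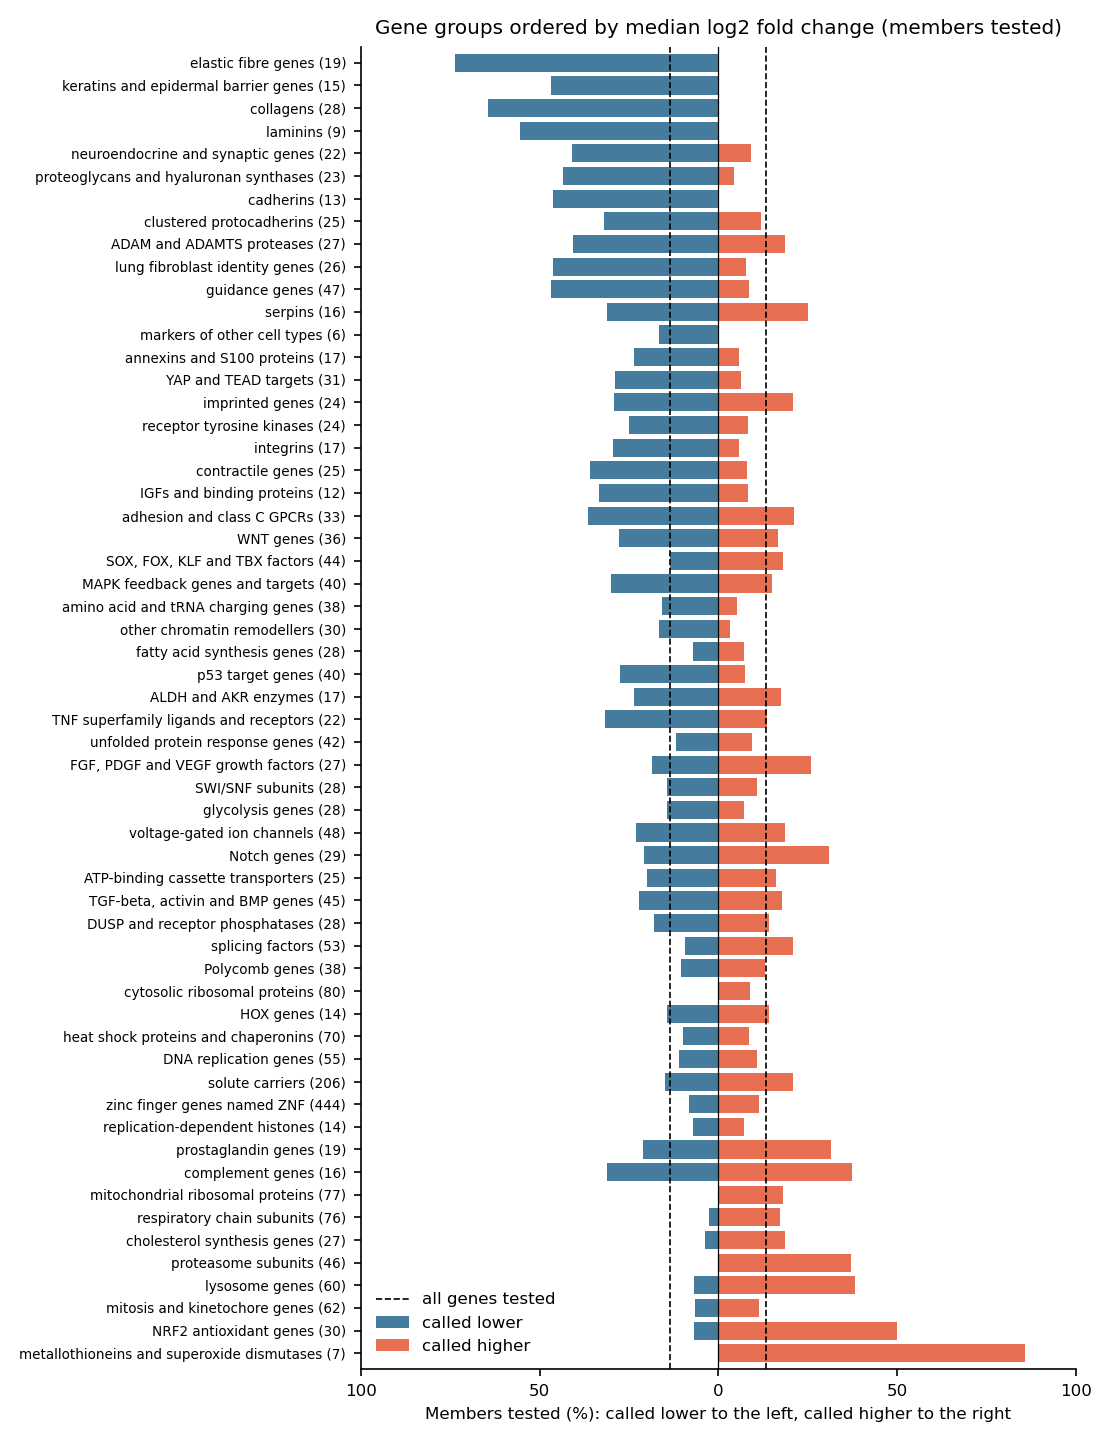
Share of tested members called lower (left, blue) and higher (right, red) in each of the 58 gene groups, ordered by median log2 fold change, with the number tested in brackets and the shares over all genes as dashed lines (13.6% and 13.3%). Elastic fibre genes and collagens (73.7% and 64.3% lower) stand at the top and metallothioneins and superoxide dismutases (85.7% higher) at the bottom.

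Axon guidance families, which also steer migrating fibroblasts and endothelium, had 22 lower and 4 higher of 47 (46.8% lower; median -0.30). The semaphorin receptor PLXNA4 was at 1.36, 2.88 and 3.82 CPM with siNT and 0.157, 0.539 and 0.984 CPM in the knockdown (-2.31 ± 0.34). The ephrin receptors EPHB1 (-1.94 ± 0.40) and EPHB3 (-1.83 ± 0.26) fell too, EPHB3 without overlap, while netrin-1 went the other way. For EPHB1 the lowest control (0.7393 CPM) and the highest knockdown library (0.7383 CPM) were nearly equal. The siNT 4 libraries held 0.739 to 1.09 CPM of EPHB1 and the siNT 2 libraries 1.96 to 2.20 CPM. Of the 22 falls, 21 held with the VM libraries, 12 with the V libraries and 6 in the 8-library fit, where the median was -0.17. Receptor tyrosine kinases gave 6 lower and 2 higher of 24 (33.3% called, against 26.9% of all genes tested). PTK7, a receptor of planar polarity, fell by 1.00 next to PDGFRB, and FLT1, a receptor for VEGF, was at -0.97 with an adjusted p of 0.0441. FLT1 lost its call in 9 of the 12 fits that left out a library, and differed between V and VM libraries.

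Growth factor and morphogen pathways split. Among fibroblast, platelet-derived and vascular growth factors 7 of 27 rose and 5 fell (44.4% called, against 26.9% of all genes tested). FGF2, a mitogen for fibroblasts and endothelium, moved from 168, 174 and 212 CPM to 418, 488 and 550.5 CPM, 1.42 ± 0.08 (adjusted p = 8.55e-08). NTF3, neurotrophin-3, which this list also held, fell by 1.85 ± 0.41 and was not called against siNT 4. Of the insulin-like growth factor system 1 gene rose and 4 fell of 12 (41.7% called). IGF2 rose by 1.50 ± 0.30, whereas the binding proteins IGFBP2 (-1.32 ± 0.18) and IGFBP5 (-1.31 ± 0.36) fell. IGFBP5 spread widely in the knockdown, from 749 to 4262 CPM against 4309 to 6766 CPM with siNT. TGF-beta, activin and BMP genes gave 8 higher and 10 lower of 45 (40% called), with a median of 0.01. BMP6, a bone morphogenetic protein, rose from 1.79 to 3.67 CPM to 5.52 to 11.9 CPM (1.73 ± 0.21), FSTL3, which traps activin, rose by 0.60, and GDF11, a ligand of the activin branch, fell by 0.72. Of 36 WNT genes 6 rose and 10 fell (44.4% called). The secreted WNT antagonists FRZB (-1.66 ± 0.30), DKK2 (-1.65 ± 0.36) and SFRP1 (-1.07 ± 0.21) fell, and the ligand WNT9A rose by 1.42 ± 0.29. WNT9A overlapped between the groups, with 23.3 CPM in the knockdown library 4-3V against up to 29.3 CPM with siNT. For the WNT list, 9 of the 10 falls and 1 of the 6 rises held with the V libraries, and 6 falls and 1 rise in the 8-library fit.

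Feedback genes and targets of MAPK signalling, the pathway that the RAS fusion feeds, gave 12 lower and 6 higher of 40 (30% lower; median -0.12). DUSP4, a phosphatase that switches MAP kinases off in the nucleus, fell from 68.3, 84.3 and 103 CPM to 15.1, 25.1 and 44.9 CPM (-1.61 ± 0.22, adjusted p = 9.24e-05). EGR2, an immediate early transcription factor, fell by 1.05, and SPRY4, a feedback inhibitor of RAS signalling, fell from 206 to 312 CPM to 131 to 179.9 CPM (-0.71). HBEGF, a ligand of the EGF receptor, rose from 52.5 to 72.1 CPM to 72.7 to 153 CPM (0.78 ± 0.16). With siNT 2 against siNT 4, 14 genes of this list were lower and 3 higher, and 4 of the 12 falls held against siNT 2 alone. YAP and TEAD targets gave 9 lower and 2 higher of 31 (35.5% called, against 26.9% of all genes tested). The falls with no overlap were led by AMOTL1, a YAP-binding scaffold (-0.79), and MYOF, a membrane repair protein (-0.71). Notch genes gave 9 higher and 6 lower of 29 (51.7% called). The Notch effectors moved in different directions, with HES4 at 1.17 ± 0.21, HEY1 at 0.56 and HES1 at -0.63, while the coactivator MAML3 (-1.11 ± 0.13) and the ligand JAG1 (-0.87) fell. The HES1 call was lost with the VM libraries only, and 1 of the 9 rises held in the 8-library fit.

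Genes for lipid mediators shifted within 1 pathway. Prostaglandin genes gave 6 higher and 4 lower of 19 (52.6% called, against 26.9% of all genes tested). The inducible cyclooxygenase PTGS2 rose from 189, 207 and 337 CPM to 573, 662 and 901 CPM (1.60 ± 0.14) and the terminal synthase PTGES from 4.85, 9.14 and 14.8 CPM to 26.9, 51.6 and 59.4 CPM (2.27 ± 0.26). The constitutive cyclooxygenase PTGS1 fell from 47.8, 67.1 and 75.2 CPM to 9.28, 15.4 and 20 CPM (-2.04 ± 0.16), and PTGIR, the prostacyclin receptor, fell by 1.09. The groups did not overlap for PTGS2, PTGES or PTGS1, and all 3 were called in the 8-library fit, in which the list had 2 higher and 1 lower. Complement genes gave 6 higher and 5 lower of 16 (68.75% called). MASP1, a protease that starts the lectin pathway, fell by 1.82 ± 0.31, and the inhibitor SERPING1 fell by 1.32 ± 0.28. Of TNF superfamily ligands and receptors, 7 fell and 3 rose of 22 (45.5% called). TNFSF4 (OX40 ligand, -1.76 ± 0.27) and the decoy receptor TNFRSF10C (-1.30 ± 0.21) fell, and TNFSF9 (4-1BB ligand, 1.15) and TNFRSF1B (TNF receptor 2, 1.12) rose.

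Antioxidant genes were higher as a group. Of 30 target genes of NRF2, the transcription factor that answers electrophiles and oxidants, 15 rose and 2 fell (50% higher against 13.3% of all genes; median 0.27). SLC7A11, the cystine importer that feeds glutathione synthesis, was at 48.5, 60.3 and 78.8 CPM with siNT and 80.3, 126 and 195 CPM in the knockdown (1.14 ± 0.21, adjusted p = 0.00104). TXNRD1, thioredoxin reductase, rose from 459, 545 and 660.2 CPM to 780.1, 911 and 1103 CPM (0.76 ± 0.12), and BLVRB, biliverdin reductase B, from 13, 15.5 and 20.8 CPM to 25.2, 38 and 47.7 CPM (1.17 ± 0.17). All 3 genes had no overlap between the groups and were called in every subset tried. PIR, a small iron-binding protein, rose by 1.24 ± 0.25. Other members named after their values were seen were thioredoxin itself, TXN (0.72), the ferritin heavy chain FTH1 (0.74), which stores iron, GCLM (0.50), a subunit of the enzyme that starts glutathione synthesis, and the inducible enzymes HMOX1 (0.60, adjusted p = 0.0472) and NQO1 (0.42). HMOX1 and NQO1 were not called with the V libraries, and HMOX1 lost its call in 7 of the 12 fits that left out a library. NFE2L2, which encodes NRF2, was at 0.31 ± 0.09 (adjusted p = 0.0145) but was not called with the V libraries or in the 8-library fit. The group mean was 0.07 to 0.54 above the siNT mean in the knockdown libraries. All 15 rises held with the VM libraries, 10 with the V libraries and 6 in the 8-library fit (median 0.13), and 12 and 11 held against siNT 2 and siNT 4 alone.

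Metallothioneins bind zinc and copper and, like superoxide dismutases, protect against oxidants. Of 7 genes of this group that were tested 6 rose and none fell (median 0.70), and the group mean was 0.49 to 1.08 above the siNT mean in the knockdown libraries, against -0.15 to 0.19 in the controls. SOD2, the mitochondrial superoxide dismutase, rose from 440.3, 540.4 and 695 CPM to 1053, 1174 and 1475 CPM (1.11 ± 0.11, adjusted p = 8.94e-06), and the secreted SOD3 from 2.66, 4.52 and 7.22 CPM to 6.69, 19.5 and 30.2 CPM (1.93 ± 0.35). MT1X rose from 22, 26.5 and 32.6 CPM to 37.7, 45.2 and 50 CPM (0.70 ± 0.11), MT1L by 1.07 ± 0.11, MT1E by 0.65 and MT2A by 0.52. Metallothionein genes are near-identical copies, and how the authors' counting divided reads among them is not given, so the value of a single copy is uncertain. All 6 rises held with the VM libraries, with the V libraries and against each siNT alone, and 4 held in the 8-library fit (median 0.58). Metallothionein promoters are known for metal response elements. The 200 bases before the RefSeq start of 2 members that rose (GRCh38.p14, plus strand) are printed to show how densely these promoters hold the core of that element, searched as TGCACNC or TGCGCNC on both strands and marked in capitals. The window of MT1X was chr16:56682270-56682469 and held 4 matches, and that of MT2A was chr16:56608384-56608583 and held 6.
MT1X: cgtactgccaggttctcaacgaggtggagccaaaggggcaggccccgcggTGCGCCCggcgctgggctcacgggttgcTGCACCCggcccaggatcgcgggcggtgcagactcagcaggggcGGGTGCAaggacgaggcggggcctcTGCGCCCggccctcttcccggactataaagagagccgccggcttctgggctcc
MT2A: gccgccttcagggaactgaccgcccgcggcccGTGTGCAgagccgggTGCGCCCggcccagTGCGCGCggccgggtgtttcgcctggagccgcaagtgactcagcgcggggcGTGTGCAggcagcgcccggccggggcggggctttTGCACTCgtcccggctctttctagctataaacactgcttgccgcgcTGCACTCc
The same core occurred at least once in 29.4% of all 27305 RefSeq promoter windows of 300 bases and in 39.3% of those of genes tested. A match describes these letters only.

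Lysosome genes were higher in 23 of 60 and lower in 4 (38.3% higher; median 0.19). ATP6V0D2, a subunit of the proton pump that acidifies lysosomes, was at 4.62, 5.58 and 6.84 CPM with siNT and 8.08, 14.7 and 30.2 CPM in the knockdown (1.51 ± 0.27). ASAH1, acid ceramidase, rose from 121, 138 and 148 CPM to 178, 234 and 277 CPM (0.78 ± 0.10), with no overlap and in every subset. CTSC, cathepsin C, rose by 0.99 ± 0.22, and among members chosen after their values were seen LAMP2, a lysosomal membrane protein, rose from 188 to 221 CPM to 257 to 316 CPM (0.45), NPC1, which exports cholesterol from lysosomes, by 0.37 and CTSD, cathepsin D, by 0.39. FUCA1, alpha-fucosidase, fell by 0.99 ± 0.17. The group mean was 0.04 to 0.22 in the knockdown libraries against -0.02 to 0.02 in the controls. Of the 23 rises, 21 held with the VM libraries, 9 with the V libraries and 6 in the 8-library fit (median 0.14). TFE3, a transcription factor of lysosomal genes, was at -0.19 ± 0.06 (adjusted p = 0.0297) and was not called with the VM libraries only. The promoter of CLN3 (Batten disease protein, 0.55 ± 0.12), chr16:28492075-28492274 on the minus strand, is shown because it held the core of the element known from lysosomal genes, searched as TCACGTG on both strands and in capitals.
CLN3: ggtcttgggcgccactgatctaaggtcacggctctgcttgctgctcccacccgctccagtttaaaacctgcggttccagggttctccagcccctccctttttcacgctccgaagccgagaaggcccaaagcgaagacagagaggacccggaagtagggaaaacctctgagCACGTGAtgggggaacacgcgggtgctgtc
Of 38 lysosome genes with a promoter in the table, 10 held this core, but fewer than 80% of the 60 genes had one, so the share over the list is void. The core was in 3.82% of all promoters and 5.97% of those of genes tested, 7.79% of those of genes called higher and 3.75% of those called lower.

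Proteasome genes were higher in 17 of 46 and lower in none (37% higher; median 0.16), with small changes. PSMA1, a subunit of the catalytic core, rose from 126, 132 and 148 CPM to 153, 191 and 204 CPM (0.48 ± 0.08), and PSMA6 by 0.36, both with no overlap. PSMA4 (0.38), a core subunit, and PSMG2 (0.37), an assembly chaperone, rose too, but PSMA4 was not called with the V libraries and PSMG2 not with the VM libraries. Of the 17 rises, 15 held with the VM libraries, 4 with the V libraries and only PSMA1 in the 8-library fit (median 0.05); the group mean was highest in the V library 2-3V (0.28). Of 40 proteasome promoters, 13 (32.5%) held the core of the antioxidant response element, searched as TGACNNNGC on both strands, against 15.3% of those of genes tested. Such a share was not particular to proteasome genes. It was 35% of 20 promoters of ATP-binding cassette transporters and 29.4% of 17 promoters of prostaglandin genes, but 9.38% of 64 cytosolic ribosomal promoters. PSMG1, an assembly chaperone (0.33 ± 0.10, adjusted p = 0.0284), is shown as an example, at chr21:39183452-39183651 on the minus strand with the core in capitals.
PSMG1: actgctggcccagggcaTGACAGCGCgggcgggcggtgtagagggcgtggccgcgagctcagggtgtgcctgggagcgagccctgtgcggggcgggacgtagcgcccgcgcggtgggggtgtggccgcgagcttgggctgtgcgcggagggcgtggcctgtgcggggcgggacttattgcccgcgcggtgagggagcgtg
PSMG1 was not called with the V libraries, against siNT 2 or in the 8-library fit.

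Genes of respiration and of protein synthesis, whose transcripts are short, had small positive medians. Respiratory chain subunits gave 13 higher and 2 lower of 76 (median 0.12), mitochondrial ribosomal proteins 14 higher and none lower of 77 (median 0.10) and cytosolic ribosomal proteins 7 higher and none lower of 80 (median 0.03). These groups had 17.1%, 18.2% and 8.75% of members called higher, against 13.3% of all genes tested. Their median transcripts were 0.781, 1.26 and 0.827 kb long. Less the median of transcripts of like length, the medians were 0.05, 0.05 and -0.03, and in the 8-library fit they were -0.02, -0.04 and -0.13. With the VM libraries only, 18, 30 and 18 of them were called higher, and with the V libraries alone 1, 2 and 1. Of these calls, none of the respiratory chain, 2 of the mitochondrial ribosome and 1 of the cytosolic ribosome held in that fit. MRPL15, a protein of the large mitochondrial ribosomal subunit, rose in every subset, from 81.4, 87.1 and 98.5 CPM to 109, 122 and 133 CPM (0.47 ± 0.07). COX7A2, a subunit of cytochrome c oxidase, was at 0.53, and NDUFA4, another one, at 0.42. The same subtraction moved the median of collagens from -0.55 to -0.48, of NRF2 targets from 0.27 to 0.21 and of metallothioneins and superoxide dismutases from 0.70 to 0.61. Elastic fibre genes gave -0.72 after it, proteoglycans -0.38, laminins -0.49, lysosome genes 0.15 and proteasome subunits 0.11.

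**Figure D5:**
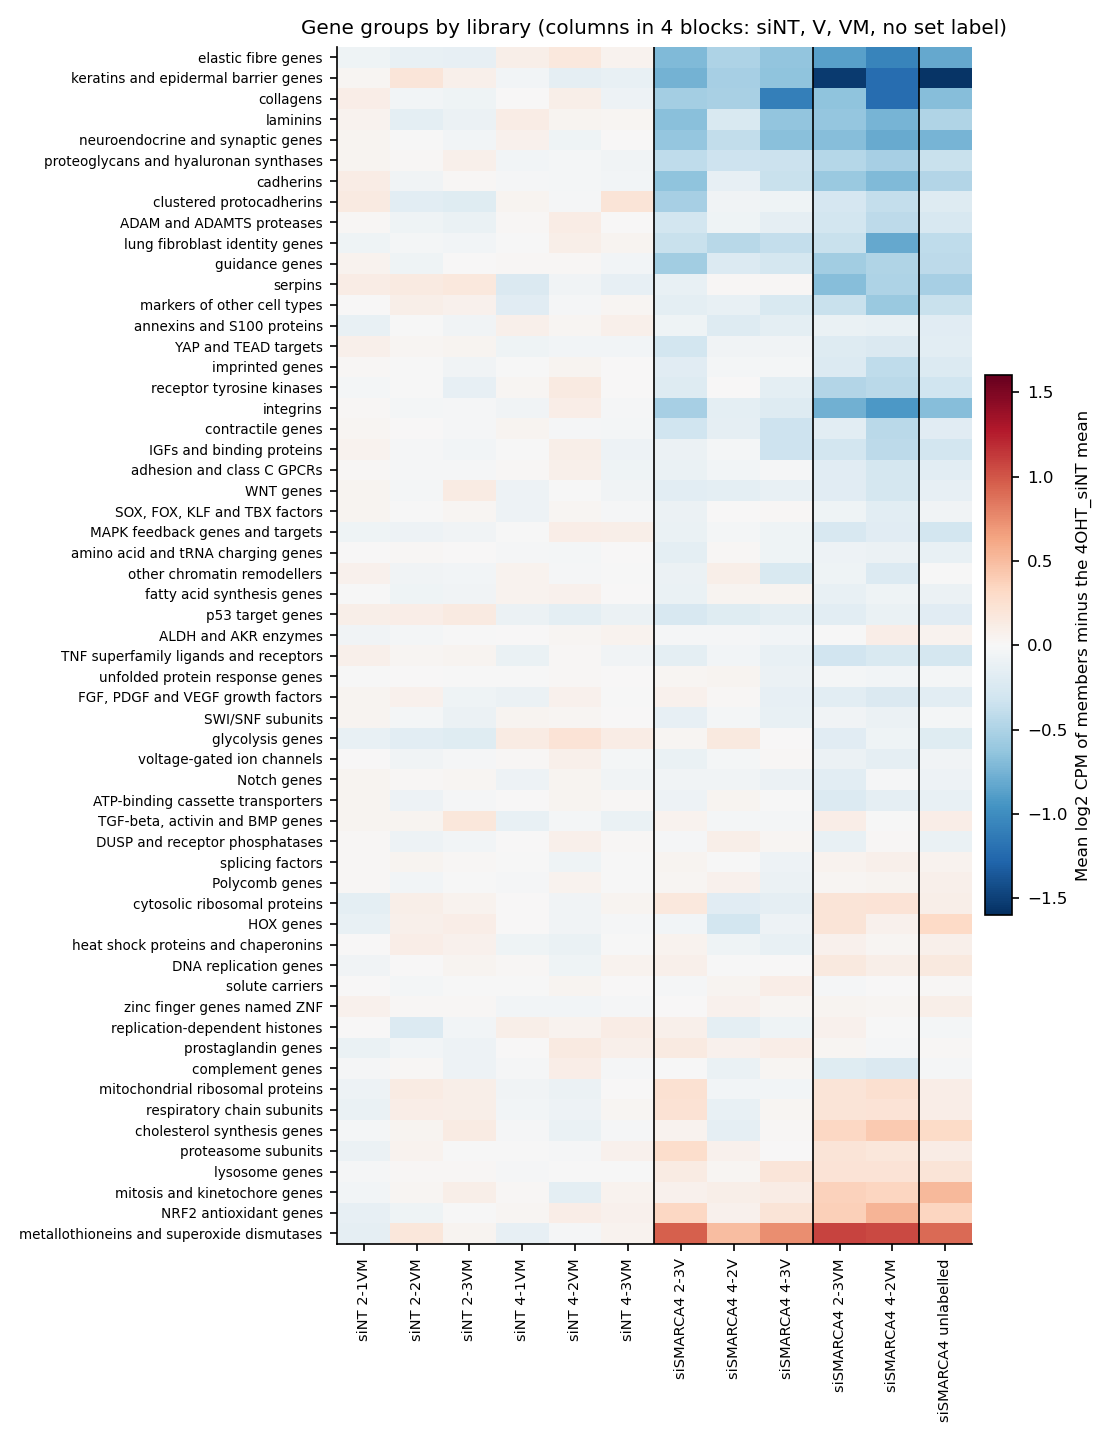
Mean log2 CPM of the tested members of each gene group minus the mean of the siNT libraries, one column per library, in 4 blocks (siNT, V, VM, no set label) and the same order of groups as in the plot of shares called. Collagens lie at -0.52 to -1.22 and metallothioneins and superoxide dismutases at 0.49 to 1.08 in the knockdown libraries, while the ribosomal groups are higher in 2-3V, 2-3VM and 4-2VM.

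Cholesterol synthesis genes depended on the libraries used. They gave 5 higher and 1 lower of 27 (median 0.15), 22.2% called against 26.9% of all genes tested. With the VM libraries alone 15 were higher (median 0.39), with siSMARCA4_2 alone 13, and with the V libraries alone 3 (median -0.01). CYP51A1, a sterol demethylase, rose from 84.8 to 111 CPM to 116 to 139.9 CPM (0.46). The group stood at 0.33 to 0.42 in the VM libraries and at -0.14 to 0.06 in the V libraries. ABCA1, which exports cholesterol, rose from 151, 168 and 207 CPM to 258, 313 and 374 CPM (0.87 ± 0.11), and its relative ABCG1 fell by 1.28 ± 0.18. Transporters of this ATP-binding cassette family gave 4 higher and 5 lower of 25 (36% called), with the drug pump ABCB1 at -1.31. Fatty acid synthesis genes gave 2 higher and 2 lower of 28, and the 14.3% called was below the share of all genes. ACSL4, which activates arachidonic acid, rose from 157 to 230.2 CPM to 331 to 456 CPM (1.04 ± 0.11), and DGAT2, which makes triglycerides, fell by 1.11 ± 0.19. Glycolysis genes gave 2 higher and 4 lower of 28 (21.4% called) with a median of -0.02, and 18 of them were lower with siNT 2 than with siNT 4.

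Amino acid synthesis and tRNA charging genes gave 2 higher and 6 lower of 38, unfolded protein response genes 4 and 5 of 42, and heat shock proteins and chaperonins 6 and 7 of 70. The shares called were 21.1%, 21.4% and 18.6%, below the 26.9% of all genes tested. ERO1A, an oxidase that forms disulfide bonds in the endoplasmic reticulum, rose from 74.8 to 82.9 CPM to 106 to 148 CPM (0.68 ± 0.08). HSPB6, a small heat shock protein of muscle, fell from 97.2, 107 and 114 CPM to 29.8, 39.9 and 86.1 CPM (-1.15 ± 0.19), and was not called in the 8-library fit. Aldehyde dehydrogenases and aldo-keto reductases gave 3 higher and 4 lower of 17 (41.2% called). ALDH1A3, which makes retinoic acid, rose from 13.1, 15.8 and 19.3 CPM to 25.8, 36.6 and 51.5 CPM (1.27 ± 0.14), and AKR1B1, aldose reductase, by 0.88 ± 0.14. Both were without overlap.

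Of 206 solute carriers, 43 rose (20.9%) and 31 fell (15%), against 13.3% and 13.6% of all genes tested, with a median of 0.06. The largest changes were falls: SLC14A1, a urea transporter, went from 49.2, 58.7 and 78.7 CPM to 6.27, 12.2 and 24.1 CPM (-2.16 ± 0.27). SLC40A1, ferroportin, the only known iron exporter, fell from 1.85, 2.17 and 3.5 CPM to 0.334, 0.64 and 1.12 CPM (-1.76 ± 0.27), with no overlap and in every subset, at the same time as the ferritin heavy chain rose. SLC1A1, a glutamate carrier, fell by 1.14 and was not called with the V libraries. Voltage-gated ion channels gave 9 higher and 11 lower of 48 (18.8% and 22.9%), among the latter the neuronal sodium channel SCN2A (-1.23). Adhesion and class C receptors coupled to G proteins gave 7 higher and 12 lower of 33 (57.6% called). GPR162 was at -1.53 and ADGRL3 (latrophilin 3) at -1.27, and 2 rises and 2 falls held in the 8-library fit. Dual specificity and receptor-type phosphatases gave 4 higher and 5 lower of 28 (14.3% and 17.9%, near the shares of all genes). PTPRH, a receptor-type phosphatase, rose from 0.206, 0.72 and 1.29 CPM to 2.46, 5.36 and 7.3 CPM (2.79 ± 0.33), with no overlap, and PTPRU fell (-1.13). Annexins and S100 proteins gave 1 higher and 4 lower of 17 (29.4% called, near the 26.9% of all genes), with ANXA3 at -0.83.

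SWI/SNF, Polycomb and HOX genes were called at shares near that of all genes tested. Of 28 SWI/SNF subunits, 3 rose and 4 fell, 25% against 26.9% of all genes tested, SMARCA4 being 1 of the 4. SMARCA2 (BRM), the alternative ATPase of the complex, fell from 26.6, 29.9 and 35.7 CPM to 16.1, 20.1 and 23.6 CPM (-0.58 ± 0.10, adjusted p = 0.000908), with no overlap and in every subset. BCL7A rose by 0.73 ± 0.14 and DPF3 by 0.48, both accessory subunits. Other remodellers gave 1 higher and 5 lower of 30 (20% called), and Polycomb genes 5 and 4 of 38 (23.7%). HOX genes gave 2 and 2 of 14 (28.6%), and histone genes of the replication-dependent kind 1 and 1 of 14 (14.3%). BMI1, a Polycomb subunit, was at -0.89 but was not called with the VM libraries alone, and RNF2, its catalytic partner, was at 0.46. HOXB8 fell from 7.81 to 10.2 CPM to 4.39 to 6.74 CPM (-0.75 ± 0.13) and HOXB4 rose by 0.92. Of 444 genes named ZNF, 50 rose (11.3%) and 36 fell (8.11%), below the shares over all genes, led by ZNF300 (1.08) and ZNF365 (-1.08). SOX, FOX, KLF and TBX factors gave 8 higher and 6 lower of 44 (31.8% called, near the share of all genes). TBX5, a limb, heart and lung factor, fell from 11.3 to 14.3 CPM to 5.76 to 8.53 CPM (-0.79 ± 0.12), and KLF9 rose from 24.7 to 37.9 CPM to 42 to 63.6 CPM (0.72 ± 0.12). Splicing factors gave 11 higher and 5 lower of 53 (30.2% called, also near it), with SRSF3 at 0.47.

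Genes of mitosis had mostly positive log2 fold changes, and most of them did not pass the test. Of 62 mitosis and kinetochore genes, 7 rose and 4 fell (17.7% called, against 26.9% of all genes tested), and 50 had a positive log2 fold change (median 0.26). With the VM libraries only, 7 were called higher (12.8% of all genes were), and with the V libraries alone 2 (5.38%). With the library without a set label added to the VM libraries, 17 were called higher. That fit called 2265 of 13001 genes higher. CDK1, the kinase of mitotic entry, was at 0.34, 0.585 and 1.01 CPM with siNT and 0.78, 1.76 and 2.54 CPM in the knockdown (1.44 ± 0.36, adjusted p = 0.00758), with overlap, and was not called with the V libraries. The group mean was 0.07 to 0.12 with a V set name, 0.35 and 0.36 with a VM set name and 0.52 without a set label. DNA replication genes gave 6 higher and 6 lower of 55 (21.8% called). RRM2, a subunit of ribonucleotide reductase, rose from 3.97, 4.41 and 5.75 CPM to 7.58, 9.2 and 12.7 CPM (1.07 ± 0.15), with no overlap and in every subset. Of 40 p53 target genes, 11 fell and 3 rose (35% called). PIDD1, which assembles a caspase-2 platform, fell from 49.3, 52.1 and 60.7 CPM to 25.2, 28.3 and 32.5 CPM (-0.90 ± 0.08, adjusted p = 5.63e-06), and BTG2, an antiproliferative factor, (-0.81). The siNT libraries differed in this list too: 16 p53 targets were higher and 2 lower with siNT 2 than with siNT 4, and the falls that held numbered 9 against siNT 2 and 5 against siNT 4.

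Among genes of other lineages that the senescent fibroblasts expressed, those of skin and nerve had negative medians. Keratins and epidermal barrier genes fell in 7 of 15 tested, out of 111 in the table, with none higher (median -0.65). The share called was 46.7%, against 26.9% of all genes tested. KRT17, a keratin of stressed skin, fell from 5.32, 6.03 and 7.63 CPM to 0.482, 1.33 and 2.51 CPM (-2.08 ± 0.30), and the late envelope gene LCE2A from 16, 20.5 and 25.4 CPM to 2.3, 3.77 and 12.1 CPM (-1.98 ± 0.31). In 7 of the 15 the groups did not overlap, with the knockdown lower, as in 6.34% of all genes tested. Of the 7 falls, 6 held with the V libraries and 4 in the 8-library fit. Neuroendocrine and synaptic genes gave 9 lower and 2 higher of 22 (50% called, median -0.51). NEFL, the neurofilament light chain, fell from 12.1, 16.7 and 22.9 CPM to 1.46, 2.88 and 4.74 CPM (-2.43 ± 0.24), and NRCAM, a neuronal adhesion molecule, (-1.79 ± 0.36). Of the 9 falls, 8 held with the V libraries and 6 in the 8-library fit. Imprinted genes, expressed from 1 parental copy, gave 5 higher and 7 lower of 24 (50% called). NNAT (neuronatin) rose from 2.13 to 3.6 CPM to 3.77 to 12.1 CPM (1.37 ± 0.26) and CPA4 fell from 24.6 to 69.6 CPM to 7.21 to 18.6 CPM (-2.19 ± 0.27), so the class had no common direction.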

How the data were processed

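RNA sequencing counts of 12 libraries were used, 6 of 4OHT_siNT and 6 of 4OHT_siSMARCA4. Per the submitters' processing notes, reads were aligned with STAR 2.7.8a, and DESeq2 1.36.0 is named there. The counting program, the annotation and whether counting used strand are not given in the sources used here. The values deposited by the authors were raw counts per gene symbol that they had not normalized, in 36 columns, one per library and sequencing lane. The 2 lanes of a library were summed. The library whose columns were named for 4OHT_siSMARCA4, siRNA 2, set 1VM, matched none of that siRNA's sample titles. It was used as a replicate with no set label. Chi-square per degree of freedom was 1.21 to 1.27 between lanes and 2.33 to 44.1 between the 30 pairs of libraries of a group, so no pair was counted as 1 sample.

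Genes were kept with filterByExpr of edgeR 4.0.16 (minimum count 10; R 4.3.3), which left 12673 genes with 99.9% of the counts. Libraries were scaled with TMM, and groups were tested with the quasi-likelihood test, with the 12 libraries in 1 fit and no covariate. Adjusted p is by Benjamini and Hochberg over every gene tested, and standard errors were derived from the F statistic. The common biological coefficient of variation was 14.4%. Values after ± are SE. The step was tested on simulated data with known changes.

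The comparison, its 58 gene lists and the tests were chosen with earlier results of these data known. Lists are described by counts and medians, with no test. Genes were named by rule: SMARCA4, then, among called genes with mean log2 CPM over 1, no overlap of the groups and the same call with the VM libraries only, the 14 largest rises and the 14 largest falls. Up to 4 called members of each list with the largest change could also be named. COL1A1, COL3A1, COL5A1, FN1, FBN1, CDH2, ACTA2, SPRY4, HEY1, HES1, NFE2L2, MT1E, MT2A, CLN3, TFE3, PSMG1 and the members said to be so were chosen after their values were seen. Some genes that these rules name are not reported here.

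Transcript lengths were those of Ensembl canonical transcripts, found for 98.4% of genes tested, and promoters were RefSeq windows on GRCh38.p14, from 250 bases before to 50 after the start, found for 80.4% of genes tested. The build the authors used is not given in the sources used here, so no coordinates of theirs were used. Alternatives covered the scaling, DESeq2 1.42.0, the filter on low counts, all 18 libraries in 1 fit, subsets by set letters or siRNA, set names as a replicate block, thresholds and leaving out each library. The 8-library fit, contrasts of V with VM and of siRNAs 2 and 4, and medians less those of like transcript length were added after seeing the data.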

Additional observations from a re-analysis of the deposited data

Results flagged for a closer look

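The 6 values of a group were checked for a single library far from the rest, by the ratio of its gap to the whole range. Of 174 sets tested, 5 stood apart, where chance gives about 8.7. GPRC5A (an orphan receptor induced by retinoic acid) was low in the siNT library 2-1VM, with a ratio of 0.769. MEST, an imprinted hydrolase, was low in the knockdown library 4-2VM (0.681), as was the cartilage collagen COL11A1 (0.698) and the mean of the lung fibroblast identity genes (0.800). The mean of the Polycomb genes was low in the knockdown library 4-3V (0.706).

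Knockdown libraries with V and VM set names were compared directly, and 22 of 12731 genes were called. Of the genes named in the report, the log2 fold change of V over VM was 1.576 for biglycan (BGN), 1.992 for FLT1, 2.009 for IGFBP5 and -1.010 for SLC7A11. Biglycan, FLT1 and IGFBP5 thus fell less, and the cystine importer rose less, in the V libraries. SMARCA4 itself lay at 119 CPM on average in the V and 78.2 CPM in the VM libraries (log2 fold change 0.59, adjusted p = 0.217). What the set letters stand for is not stated, and their part in these differences was not tested.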

How the results depend on the processing

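Genes called numbered 3405 (1685 higher, 1720 lower). The count moved by over 1.5 times when all 18 libraries shared 1 fit (1397, with 655 higher and 742 lower), with the V libraries only (1474; 701 and 773), with siNT 2 only (2029; 903 and 1126), with siSMARCA4_4 only (1481; 695 and 786), in the 8-library fit (1023; 488 and 535), at an adjusted p under 0.01 (1767; 801 and 966) and with a 2-fold threshold (460; 135 and 325). Other scalings, filters, DESeq2 and the other subsets gave 3108 to 4802. Leaving out 1 library gave 2765 to 4082 genes, 1263 to 1919 higher and 1360 to 2212 lower, and a SMARCA4 log2 fold change of -1.74 to -1.52. SMARCA4 was called in every fit.

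With the set name as a replicate block, libraries with a label gave 1668 genes (626 higher, 1042 lower), and 3494 with the unlabelled library placed in set 1VM. Whether same-named sets share more than a name is not stated. The deviations of same-named libraries correlated at -0.0351 and 0.0451, or at 0.0949, 0.0061 and 0.0657 with the unlabelled library placed. Each of these sets held a single knockdown library, and the labelled pair differed in siRNA, so these values cannot tell set from siRNA. Of the 28 genes named by size and SMARCA4, 1 call was lost in 804 checks, that of IVL under the block (-3.74, adjusted p = 0.0582). The 28 were chosen for large changes, no overlap and a call with the VM libraries, which is itself among the checks. Their selection thus largely fixed this outcome, and it is no measure of robustness. Of 6926 checks of genes named from lists, 922 lost the call and none turned direction. These fits share libraries with the main fit, so a turn was unlikely from the start. The V and VM letters are confounded with the siRNA, and low counts limit genes under about 1 CPM.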

Other observations

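Gene families beyond the lists were scanned by the root of the gene symbol, so the families below were chosen after their values were seen. Their medians were not set against transcripts of like length, and their calls in the 8-library fit were not counted. Claudins, the strands of tight junctions, had 4 of 8 members higher (50%, against 13.3% of all genes tested) and none lower (median log2 fold change 0.45). CLDN11 rose from 12.1 to 41.9 CPM (medians of 6 libraries; 1.79 ± 0.28), CLDN12 from 43 to 85.8 CPM (0.95 ± 0.08) and CLDN1 from 372 to 616 CPM (0.80 ± 0.10), each without overlap, while CLDN16 (1.01 ± 0.35) overlapped and lost its call in 8 of the 12 fits that left out a library. The ARHGEF and DOCK families went the other way. Of 20 ARHGEF genes 11 were lower (55%, against 13.6% of all genes tested) and 1 higher (ARHGEF10L, 0.50), with a median of -0.32. Of 9 DOCK genes 4 were lower (44.4%) and none higher. Examples were ARHGEF17 (-0.54), ARHGEF4 (-0.91), DOCK6 (-0.89) and DOCK9 (-0.64), of which DOCK9 alone was called with the V libraries. Histone demethylases named KDM were lower in 6 of 18 (33.3%) and higher in none. Among them were KDM5C (-0.41) and KDM6B (-0.35), which lost its call in 8 of the 12 fits that left out a library. KLF factors were higher in 5 of 12 (41.7%) and lower in 2 (16.7%). CYP1B1, a cytochrome P450 induced by the aryl hydrocarbon receptor, rose from 15.6 to 49.7 CPM (medians; 1.75 ± 0.20), with no overlap.

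By chromosome, 26% of 173 genes on chromosome 18 were called higher, against 13.3% of all genes tested, and 11.0% were lower. The median log2 fold change there was 0.05. With the VM libraries only the share was 21.4% (12.8% over all genes), with the V libraries 6.94% (5.38%) and in the 8-library fit 5.78% (3.77%). Between the controls, 22.8% of genes of chromosome 18 were higher with siNT 2 than with siNT 4, against 12.4% of all genes. Chromosomes 13 (21.1%), 4 (20.8%) and 8 (20.5%) had similar shares, and chromosomes 19 (4.66%) and 22 (2.28%) the lowest. Genes in the highest quintile of expression were called lower more often (19.2%) than those in the lowest quintile (10.2%), and 14.6% and 8.68% were higher. The median gene span was 27.8 kb for genes called higher, 46.8 kb for genes called lower and 30.9 kb for all genes tested.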
